A study of Homo sapiens with 9 samples.

Results

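The 10 genes described here encode the enzymes that interconvert pyruvate and lactate, the carriers that move lactate across the plasma membrane, and the kinases that switch off pyruvate dehydrogenase: LDHA, LDHB, SLC16A1, SLC16A3, BSG, PDK1, PDK2, PDK3, PDK4 and PDHA1. They were chosen by symbol, and all 10 had a row among the 18153 genes of the authors' gene-level table. Illumina bead arrays read the expression of Huh-7, a line from a human hepatoma, made stable with lentiviral short hairpin RNA (shRNA). The shGFP line served as control for lines depleted of NDRG3 (shNDRG3) or of HIF1A (shHIF-1A), the gene of the oxygen-regulated subunit of hypoxia-inducible factor 1. The number of hairpins or clones behind each line was not given in the sources used here. Hypoxia was culture in 1% oxygen.

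The 9 arrays formed 9 groups of 1 array. The first platform held 6 of them: normoxic shGFP cells (1 array, the control of both early times), hypoxic shGFP cells (6 h, 12 h), hypoxic shNDRG3 cells (6 h, 12 h) and hypoxic shHIF-1A cells (12 h). On the second platform were normoxic shGFP cells, and shGFP and shNDRG3 cells kept hypoxic for 24 h. All 9 arrays came from hairpin-carrying lines, and the knockdown lines were measured in hypoxia alone, so each knockdown difference is one between hypoxic lines. The hypoxia differences at 6 h and 12 h share the normoxia array, and the 12 h differences of both knockdown lines share the shGFP array. With no repeat of any condition, a difference between 2 arrays has no replicate check. In such bulk samples, fewer cells of a type and less RNA per cell cannot be told apart. Differences were taken within a platform, on the log2(intensity + 32) scale, which understates the differences of dim genes.

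In low oxygen, cells turn from oxidising pyruvate in mitochondria to reducing it to lactate. Lactate dehydrogenase is a tetramer of A and B subunits, of which the A subunit, encoded by LDHA, favours the reduction of pyruvate. Monocarboxylate transporters carry lactate out of the cell together with a proton: SLC16A3 encodes MCT4, the exporter of glycolytic cells, SLC16A1 encodes MCT1, and BSG encodes basigin (CD147), the glycoprotein that both need to reach the membrane. Pyruvate dehydrogenase kinases, encoded by PDK1, PDK2, PDK3 and PDK4, phosphorylate the E1 alpha subunit encoded by PDHA1 and so keep pyruvate out of the citric acid cycle. LDHA, SLC16A3, PDK1 and PDK3 are known targets of hypoxia-inducible factor 1 in human cells, and PDK4 is known for its induction by fasting and fatty acids. NDRG3 protein is known to bind lactate and to accumulate in prolonged hypoxia, and the effect of its knockdown on the hypoxia response is the question of the study.

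The arrays as a whole set limits on these values. Of 18 hepatocyte and hepatoma markers, 2 to 5 lay over the filter value (the 40th percentile of a platform) on any one array. AFP and APOB lay under it on all 9. ALB lay over it on 6 arrays but did not exceed 229, VTN on 8 with at most 464, and APOA1 on 3 with at most 345. The listed markers of a hepatoma line thus lay under the filter or were dim here. Of 17 markers of other cell types, 5 or 6 lay over it on each array. The summed intensity of the 17 was 15794 to 31875 on the first platform, most of it the keratin gene KRT17. On the second platform that sum was 12926 in shGFP normoxia, 17929 in shGFP hypoxia and 5774 in shNDRG3 hypoxia. KRT17 alone was at 7762, 13354 and 797 on these arrays, so the shNDRG3 array of 24 h stood apart by KRT17. The sums thus follow KRT17 and do not describe the listed markers as a set. By the authors' gene-level values the targeted genes followed the labels: NDRG3 intensity was 268, 215 and 233 in shNDRG3 cells at 6, 12 and 24 h against 1278, 1456 and 1712 in shGFP cells, and HIF1A intensity was 231 in shHIF-1A cells against 897 in shGFP cells at 12 h. The probes behind the HIF1A value were not resolved on the first platform. One of the 2 probes whose mean equals the HIF1A value on the second platform (a match over 3 arrays, with no annotation) went the other way on the first, at 3030 in shHIF-1A cells against 1720 in shGFP cells, a difference of 0.81. That probe lies far above the gene-level value of 231 in shHIF-1A cells, and whether it reads HIF1A was not tested. The HIF1A knockdown thus rests on the gene-level value alone.

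The promoters are shown because the members were read in hypoxia, and the core letters of a hypoxia response element are ACGTG or GCGTG. RefSeq lists 18 starts for 9 of the 10 genes; SLC16A1 is not among them. In the 250 bases before each start, ACGTG was found on either strand (as ACGTG or as its complement CACGT, which overlap where the letters are CACGTG, counted on each strand) for at least 1 start of 6 members: LDHA, SLC16A3, BSG, PDK1, PDK2 and PDK3. By start, 6 of 18 windows held it, against 18.5% of the 35116 windows of the same length in the table, and 7 of 18 held GCGTG on either strand, against 32.2%. Genes with several starts had more chances of a match, and a match is letters and not by itself a binding site. The starts printed were picked after the matches were seen, to show LDHA, SLC16A3 and the kinase genes PDK1, PDK3 and PDK4. The kinase gene PDK2 is not printed. Its second start has GCGTG at 161 and CACGTG at 129 bases before it. The 250 bases before the start follow for LDHA (chr11:18394313-18394562), for the second SLC16A3 start (chr17:82228792-82229041), for PDK3 (chrX:24465036-24465285), for the second PDK1 start (chr2:172555840-172556089), all on the plus strand, and for PDK4 (chr7:95596517-95596766, minus strand), in RefSeq's GRCh38.p14 build, 5′ to 3′, with the searched letters in capitals:
LDHA: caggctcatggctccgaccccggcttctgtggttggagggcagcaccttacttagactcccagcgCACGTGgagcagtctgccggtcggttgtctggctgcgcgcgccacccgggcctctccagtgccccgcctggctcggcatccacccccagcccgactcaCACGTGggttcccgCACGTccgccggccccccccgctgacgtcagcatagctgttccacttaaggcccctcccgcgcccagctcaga
SLC16A3: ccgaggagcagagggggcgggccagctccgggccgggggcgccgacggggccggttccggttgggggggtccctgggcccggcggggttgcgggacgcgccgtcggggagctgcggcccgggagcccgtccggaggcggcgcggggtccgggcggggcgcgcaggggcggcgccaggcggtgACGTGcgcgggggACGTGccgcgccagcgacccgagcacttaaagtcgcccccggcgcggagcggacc
PDK3: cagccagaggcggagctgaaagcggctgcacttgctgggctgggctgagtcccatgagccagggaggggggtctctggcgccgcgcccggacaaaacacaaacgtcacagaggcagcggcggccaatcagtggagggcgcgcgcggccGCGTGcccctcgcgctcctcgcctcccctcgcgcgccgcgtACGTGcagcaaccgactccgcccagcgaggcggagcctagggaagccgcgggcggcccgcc
PDK1: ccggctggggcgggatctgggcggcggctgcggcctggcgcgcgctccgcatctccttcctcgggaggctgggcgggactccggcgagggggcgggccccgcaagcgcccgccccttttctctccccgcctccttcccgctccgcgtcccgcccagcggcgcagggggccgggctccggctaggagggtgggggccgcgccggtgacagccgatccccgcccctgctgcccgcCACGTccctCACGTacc
PDK4: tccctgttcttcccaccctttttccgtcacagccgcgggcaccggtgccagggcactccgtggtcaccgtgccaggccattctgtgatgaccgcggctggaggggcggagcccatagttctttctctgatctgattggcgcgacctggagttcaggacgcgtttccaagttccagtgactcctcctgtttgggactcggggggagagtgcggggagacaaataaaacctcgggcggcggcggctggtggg
The LDHA window holds CACGTG at 185 and at 87 bases before the start, and CACGT at 73. The SLC16A3 window holds ACGTG at 68 and 55 bases before the start, and the PDK3 window GCGTG at 102 and ACGTG at 61. The PDK1 window holds CACGT at 17 and 8 bases before the start. None of the searched letters lies in the PDK4 window.

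The first comparison asked how these genes responded to hypoxia in shGFP cells. The lactate exporter SLC16A3 rose and PDK4 fell, PDK3 was higher at the early times, and the dehydrogenase genes differed little on the log2 scale. In limma over the 5 shGFP arrays, with times standing in for replicates, 1 of 9 members tested rose and 1 fell, against 0.384% and 0.0548% of the 12774 genes tested. The median of the 9 members was 0.11 in that fit, against -0.02 over all genes. Array against array, 1 of 9 members was at least 2-fold higher and 0 were 2-fold lower at 6 h (0.899% and 0.0529% of genes), 2 and 0 of 9 at 12 h (2.49% and 1.53%), and 1 and 1 of 8 over the filter at 24 h (2.69% and 1.95%). The summed markers of other cell types went from 15794 in normoxia to 22662 and 23752 after 6 h and 12 h, and from 12926 to 17929 after 24 h. KRT17 alone went from 13371 to 20229 and 21440, and from 7762 to 13354, so the rise in the sums lay in KRT17. Its part in the member differences was not tested.

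**Figure D1:**
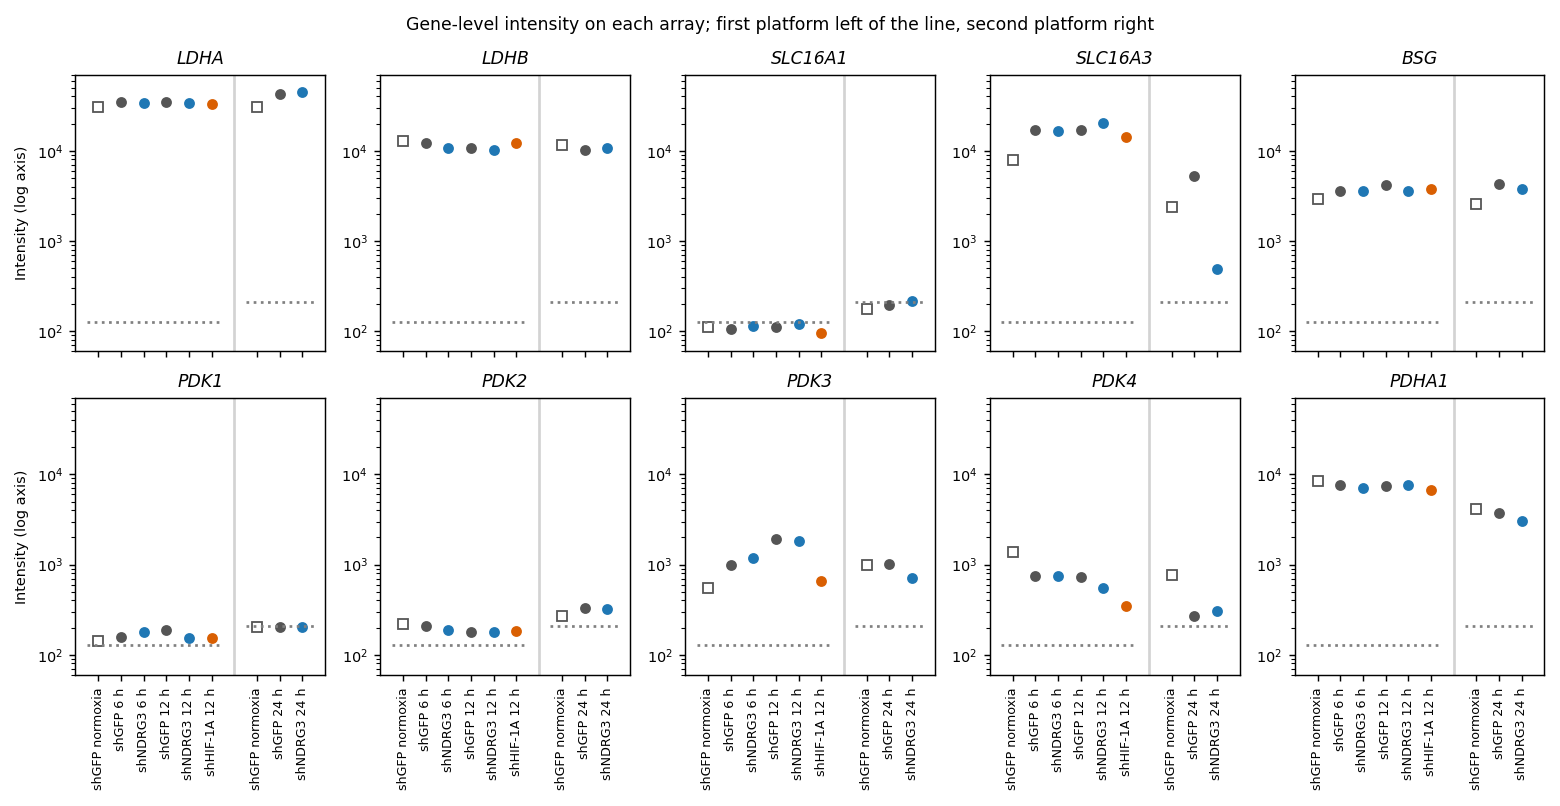
Intensity of each of the 10 genes (log axis) on the 9 arrays, with shGFP in grey (open squares, normoxia), shNDRG3 in blue and shHIF-1A in orange; dotted lines mark the filter value of each platform. SLC16A3 lies at 483 in shNDRG3 cells at 24 h, and PDK1 and SLC16A1 lie close to the dotted lines.

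LDHA was among the brightest genes of every array, at or over the 99.6 percentile. Its intensity in shGFP cells was 30575 in normoxia, 34535 after 6 h and 34556 after 12 h of hypoxia on the first platform, and 30439 in normoxia and 42173 after 24 h on the second. Each hypoxia array thus lay above its normoxia array, by log2 differences of 0.18, 0.18 and 0.47. The limma estimate was 0.30 (SE 0.13, adjusted p = 0.274) and did not pass. The LDHA values lay at 52.4% to 75.4% of the highest value in the table for their platform, and signal compression at such brightness was not tested. LDHB, which encodes the B subunit, was at 12926, 12170 and 10838 in shGFP cells in normoxia and after 6 h and 12 h, and at 11441 in normoxia and 10117 after 24 h. Each hypoxia value was the lower one, and the limma estimate of -0.17 (SE 0.13, adjusted p = 0.504) did not pass.

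SLC16A3 was about 2-fold higher in hypoxia at all 3 times. Its intensity in shGFP cells went from 7893 in normoxia to 16926 after 6 h and 16841 after 12 h, and from 2384 in normoxia to 5284 after 24 h. These are log2 differences of 1.10, 1.09 and 1.14, and the 6 h and 12 h levels lay close together. Differences at least that far from 0 were seen for 0.793%, 3.19% and 3.13% of genes at these times. In limma SLC16A3 rose by 1.11 (SE 0.12, adjusted p = 0.0181). The call ended with no filter on low values (limma adjusted p = 0.0825), and the size did not leave the range 1.09 to 1.14 under any of the alternatives run.

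BSG, the chaperone of the transporters, was at 2902, 3597 and 4203 in shGFP cells in normoxia and after 6 h and 12 h, and at 2589 in normoxia and 4237 after 24 h. The differences were 0.31, 0.53 and 0.70, each above 0; the limma estimate was 0.54 (SE 0.14, adjusted p = 0.146). The authors' BSG value is the mean of 2 probes, of which one lay at background (91 to 102 on the first platform). The other probe carried the difference, from 5714 in normoxia to 8309 after 12 h and from 4989 in normoxia to 8325 after 24 h. SLC16A1 could not be read for hypoxia: it lay at 94 to 119 on the first platform, under the filter value of 127.3 on 6 of 6 arrays, and over the 210.2 of the second platform on 1 of 3 arrays (214, shNDRG3 cells).

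Of the 4 kinase genes, PDK3 and PDK4 had the larger hypoxia differences. PDK3 intensity in shGFP cells was 548 in normoxia, 999 after 6 h and 1926 after 12 h, differences of 0.83 and 1.75; 0.683% of genes were at least as far from 0 at 12 h. On the second platform PDK3 was at 996 in normoxia and 1016 after 24 h, a difference of 0.03. The early and the 24 h values thus parted by -1.26 (SE 0.54), but this did not pass in limma (adjusted p = 0.616), nor did the hypoxia estimate over all times (0.75, SE 0.35, adjusted p = 0.291). Time and platform cannot be told apart for it. In the test of 24 h against the early times no member passed in limma, 0 of the 9 also at an unadjusted p under 0.05, and 0 of 12774 genes passed, with 1046 at an unadjusted p under 0.05.

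PDK4 went the other way. Its intensity in shGFP cells was 1376 in normoxia, 742 after 6 h and 719 after 12 h, and 766 in normoxia and 272 after 24 h. Every hypoxia array was below its normoxia array, by -0.86, -0.91 and -1.39. In limma PDK4 fell by 1.10 (SE 0.15, adjusted p = 0.0447). The call ended without the 24 h arrays (-0.89, adjusted p = 0.0887), with no filter (adjusted p = 0.161) and with a pseudocount of 64 (-1.05, adjusted p = 0.0700).

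PDK1 and PDK2 lay near the filter values. PDK1, the kinase best known as a hypoxia-induced one, was at 144, 156 and 186 in shGFP cells in normoxia and after 6 h and 12 h, near the middle of an array's genes, and at 204 and 201 on the second platform, under the filter value there. The largest difference was 0.31 at 12 h, a size reached by 36.3% of genes, and the limma estimate of 0.11 had a 95% confidence interval from -0.22 to 0.44. The PDK1 value equals 1 probe, the same on both platforms, and whether that probe reads the transcript in these cells was not tested. PDK2 was at 217, 206 and 178, and at 269 and 329 on the second platform; its differences of -0.06, -0.25 and 0.26 had no common sign. PDHA1, which encodes the subunit the kinases act on, was at 8491, 7564 and 7349, and at 4173 and 3692 on the second platform. Its differences of -0.17, -0.21 and -0.18 were alike in sign and size, and the limma estimate of -0.18 (SE 0.12, adjusted p = 0.459) did not pass.

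**Figure D2:**
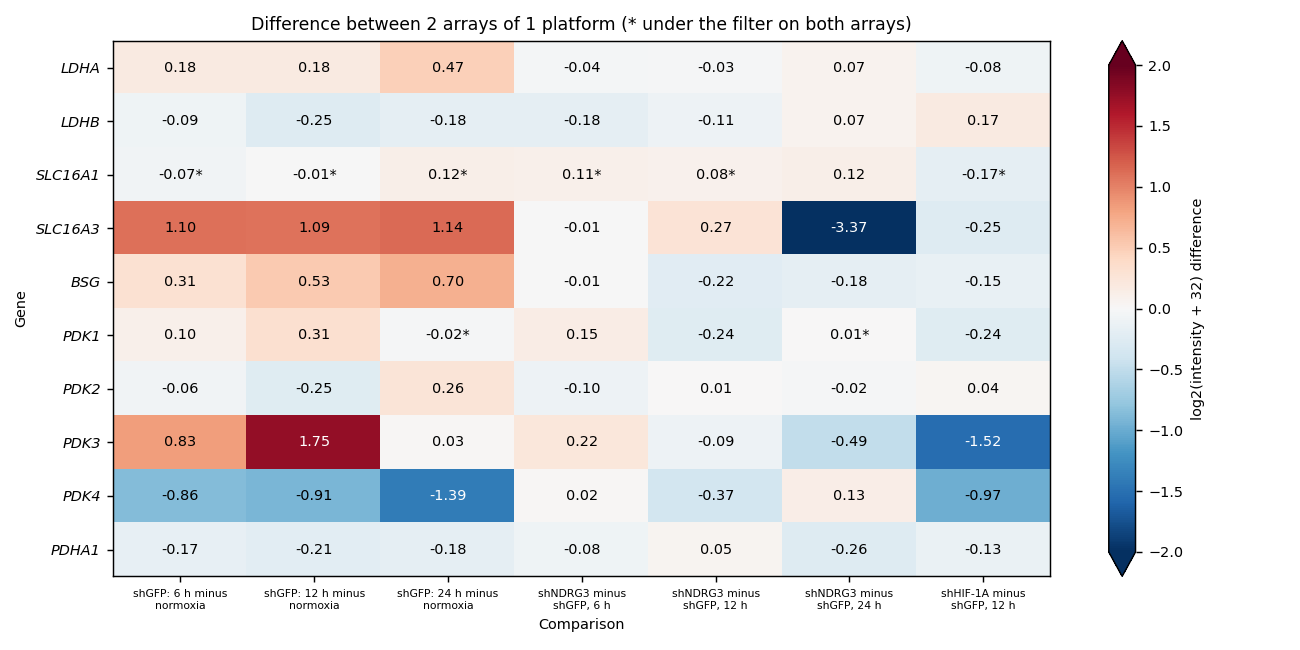
Log2(intensity + 32) differences of the 10 genes (rows) in 7 comparisons of 2 arrays (columns), coloured from blue (lower) to red (higher); an asterisk marks genes under the filter on both arrays. SLC16A3 is 1.09 to 1.14 in the hypoxia columns and -3.37 in shNDRG3 cells at 24 h, and PDK3 is -1.52 in shHIF-1A cells.

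The second comparison asked what NDRG3 depletion did to these genes in hypoxia. At 6 h and 12 h the shNDRG3 and shGFP arrays were close for all 9 members over the filter: the differences ran from -0.18 (LDHB) to 0.22 (PDK3) at 6 h and from -0.37 (PDK4) to 0.27 (SLC16A3) at 12 h, with medians of -0.01 and -0.09. No member was 2-fold apart, as for nearly all genes (0.0441% higher and 0.0706% lower at 6 h, 0.0618% and 0.106% at 12 h). SLC16A3 was at 16760 against 16926 at 6 h and at 20311 against 16841 at 12 h. PDK3 was at 1173 against 999 and at 1801 against 1926. LDHA was at 33597 against 34535 and at 33897 against 34556. On these arrays SLC16A3, PDK3 and LDHA of shNDRG3 cells all lay above the shGFP normoxia values of 7893, 548 and 30575.

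At 24 h SLC16A3 was the 1 of 9 members that differed 2-fold, against 2.57% of genes lower and 0.673% higher by as much. Its intensity was 483 in shNDRG3 cells, 5284 in shGFP cells in hypoxia and 2384 in shGFP cells in normoxia. The shNDRG3 value was thus the lowest of the 3 and differed by -2.23 from normoxia and by -3.37 from hypoxic shGFP cells, the latter a size reached by 0.138% of genes. The difference of this 24 h value from the mean of the early ones was -3.50 (SE 0.16, limma adjusted p = 9.21e-13), lower at 24 h than at each of the 2 early times. That test called 9.29% of 13237 genes higher and 9.96% lower, and its spread comes from the 6 h and 12 h arrays alone, so it holds no variation between arrays of the second platform. On the same 24 h array KRT17 was at 797 against 13354 in shGFP cells, and HIF1A was at 331 against 572. That HIF1A value is matched, without annotation, to the mean of 2 probes, at 506 against 951 and at 156 against 194. Whether either probe reads HIF1A was not tested. The part of KRT17 and HIF1A in the SLC16A3 value was not tested. In the fit with 1 NDRG3 term over the 3 times, SLC16A3 was at -1.04 (SE 0.69, limma adjusted p = 0.659).

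The other members over the filter lay within 2-fold of the control at 24 h. LDHA was at 44422 in shNDRG3 cells against 42173 in shGFP cells, LDHB at 10657 against 10117, and BSG, the partner of the exporter, at 3741 against 4237. PDK4 was at 302 against 272, and PDK2 at 324 against 329. PDK3 was at 714 against 1016, a difference of -0.49, and PDHA1 at 3069 against 3692, a difference of -0.26. PDK3 differed between the 24 h and the early values by -0.56 (SE 0.17, limma adjusted p = 0.0222), and this call ended after background subtraction (-0.65, adjusted p = 0.142). The single NDRG3 term called 0 of 10 members in limma, with 0 of 10 at an unadjusted p under 0.05; 0.00755% of genes passed downward and 0 upward, with 1129 genes at an unadjusted p under 0.05.

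**Figure D3:**
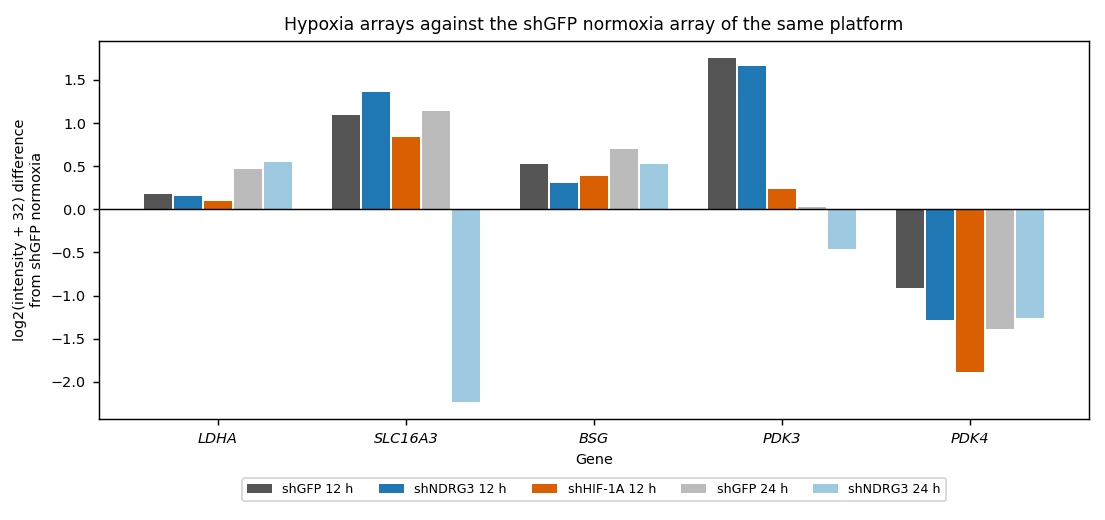
Bars give the log2(intensity + 32) difference of hypoxia arrays from the shGFP normoxia array of the same platform for 5 genes, by line and time. For PDK3 the bar of shHIF-1A cells at 12 h is 0.24 against 1.75 in shGFP cells; for SLC16A3 the bar of shNDRG3 cells at 24 h is -2.23 against 1.14.

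The third comparison asked what HIF1A depletion did after 12 h of hypoxia, on 1 array. PDK3 and PDK4 were the members farthest from control cells, both lower, while the exporter and the dehydrogenases were near it. PDK3 intensity was 652 in shHIF-1A cells against 1926 in shGFP and 1801 in shNDRG3 cells, and against 548 in normoxic shGFP cells. The shHIF-1A value thus lay close to normoxia, with a difference from it of 0.24 where shGFP cells had 1.75. Its difference from hypoxic shGFP cells was -1.52, a size reached by 0.202% of genes. PDK4 was at 350 against 719 in shGFP and 547 in shNDRG3 cells, a difference of -0.97 from shGFP cells. Its level in shHIF-1A cells was the lowest on the first platform, -1.88 from normoxia where shGFP cells had -0.91, so of these 2 arrays it was the one farther from normoxia. PDK3 was the 1 of 9 members at least 2-fold lower, against 0.605% of genes, and none was 2-fold higher, against 0.534%. With a pseudocount of 16 or after background subtraction PDK4 passed too, 2 of 9 members; its ratio of intensities was 0.487. The summed markers of other cell types were at 31875 on the shHIF-1A array against 23752 in shGFP cells. KRT17 alone was at 29323 against 21440, so this difference lay in KRT17, and its part in the member values was not tested.

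SLC16A3 was at 14135 in shHIF-1A cells, between normoxia (7893) and hypoxic shGFP cells (16841); it lay 0.84 above normoxia where shGFP cells had 1.09. LDHA was at 32644 against 34556, and 30575 in normoxia. LDHB was at 12233 against 10838, and 12926 in normoxia, and so again lay between the 2 shGFP arrays. BSG was at 3791 against 4203, PDHA1 at 6735 against 7349, PDK1 at 153 against 186 and PDK2 at 184 against 178. SLC16A1 was at 94 and under the filter. These differences ran from -0.25 (SLC16A3) to 0.17 (LDHB).

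In the 9-array limma fit, 0 of 10 members passed for HIF1A, as did 0 of 13237 genes, with 1433 at an unadjusted p under 0.05, PDK3 and PDK4 among them. PDK3 was at -1.53 (SE 0.23, limma adjusted p = 0.134) and PDK4 at -0.82 (SE 0.20, adjusted p = 0.233). Without the 24 h arrays the estimates were -1.44 for PDK3 and -0.87 for PDK4, on 1 residual degree of freedom. The 1 shHIF-1A array adds nothing to the spread in either fit, so the HIF1A p-values hold no variation of that line. The 9-array fit gives SLC16A3 an estimate of -0.91 (SE 1.10), unlike the direct difference of -0.25. This is because its 12 h level also draws on the shNDRG3 arrays, that of 24 h included. The shHIF-1A and shNDRG3 lines, set side by side at 12 h, differed by -1.42 for PDK3, -0.60 for PDK4 and -0.52 for SLC16A3, and by 0.28 for LDHB.

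**Figure D4:**
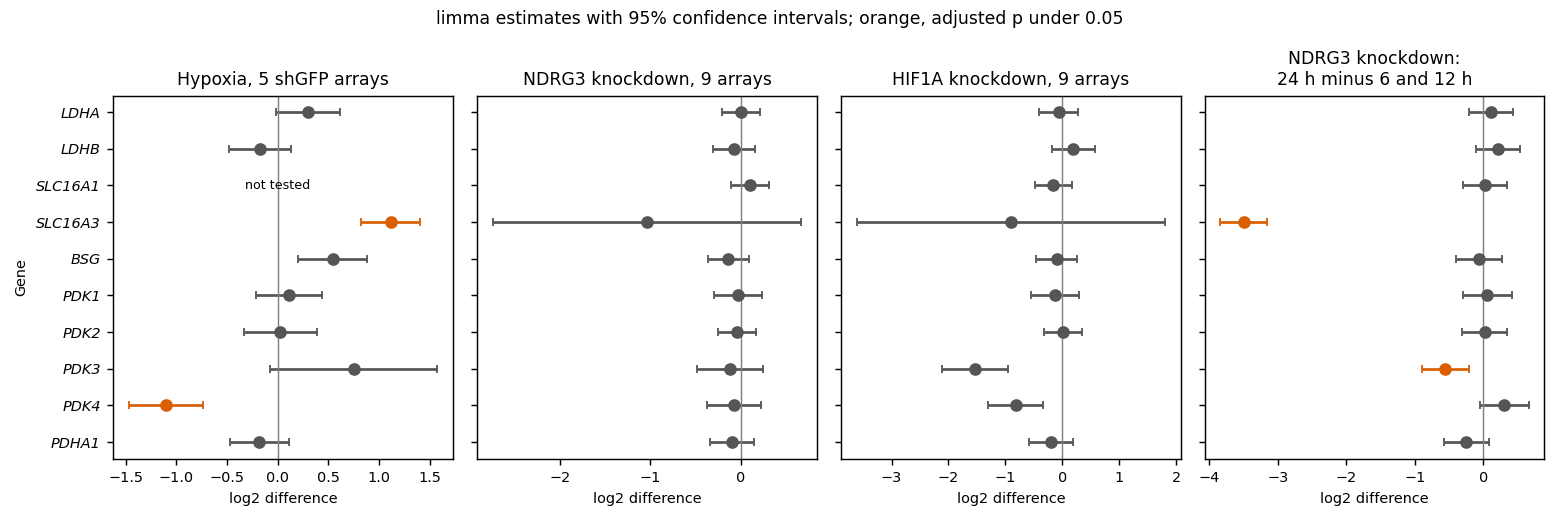
limma estimates (points) with 95% confidence intervals (bars) for the members in 4 tests; orange marks an adjusted p under 0.05. SLC16A3 (1.11) and PDK4 (-1.10) pass for hypoxia, SLC16A3 (-3.50) and PDK3 (-0.56) for the 24 h against the early NDRG3 difference, and none for the NDRG3 or the HIF1A term.

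Other genes of pyruvate and lactate metabolism were read from a list of 27, of which 26 were in the table. In hypoxic shGFP cells their medians were -0.0018, -0.01 and 0.14 at 6, 12 and 24 h, against -0.02, -0.01 and -0.03 over all genes. In limma 0 of 21 tested passed, with 4 at an unadjusted p under 0.05. This 0 did not hold in every alternative: 1 was called higher with the 60th percentile filter and 2 without the 6 h arrays. Nor did the 0 hold without the 24 h arrays, in a fit with a single normoxia array. GPT2, the mitochondrial alanine aminotransferase that pairs pyruvate with glutamate, was at 478, 1078 and 1345 in normoxia and after 6 h and 12 h, and at 1718 and 2918 on the second platform (limma estimate 1.05, SE 0.17, adjusted p = 0.0748). PKM, the pyruvate kinase that makes pyruvate, was at 4540, 6288 and 8236, and at 2018 and 3883 (0.78, SE 0.16, limma adjusted p = 0.112). PDPR, a regulator of the phosphatase that reactivates pyruvate dehydrogenase, was at 476 in normoxia and 1023 after 24 h. All 3 were higher on every hypoxia array of shGFP cells than on its normoxia array.

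Subunits of the pyruvate dehydrogenase complex gave small differences in shGFP cells, and none passed for hypoxia. PDHB, the E1 beta subunit and partner of PDHA1, was at 13473, 11505 and 10209 on the first platform and at 14390 and 13332 on the second. DLAT, the E2 subunit, was at 1153, 1037 and 884, and at 2449 and 1920. Both were lower on each hypoxia array, with limma estimates of -0.23 (adjusted p = 0.403) and -0.30 (adjusted p = 0.282). PDHX, the E3-binding subunit, was at 1553, 1634 and 1563, and at 2410 and 2802, slightly higher on each hypoxia array (limma estimate 0.12, adjusted p = 0.667). DLD, the E3 subunit, was at 2664, 2258 and 2352, and at 2194 and 2530, with no common sign (-0.03, limma adjusted p = 0.927). In shNDRG3 cells PDHB was at 8634 against 11505 at 6 h and 6845 against 10209 at 12 h, but at 14861 against 13332 at 24 h. The 24 h and the early PDHB differences parted by 0.65 (SE 0.16, limma adjusted p = 0.00596). In that test 6 of 21 listed genes were called higher and 2 lower, against 9.29% and 9.96% of all genes. After background subtraction 0 of 21 were called higher and 1 lower, so the PDHB call ended there. MPC1, a subunit of the mitochondrial pyruvate carrier, was at 6458 in shNDRG3 cells against 4202 in shGFP cells at 24 h, and at 2385 in shHIF-1A cells against 1444 at 12 h.

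**Figure D5:**
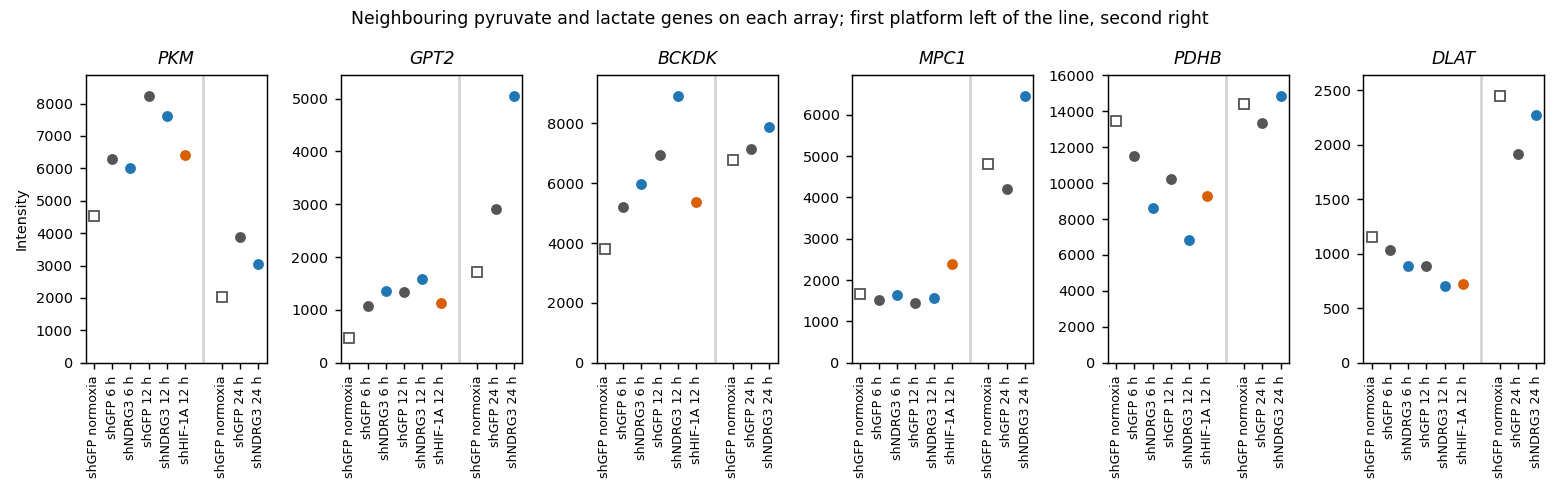
Intensity (linear axis from 0) of 6 neighbouring genes on the 9 arrays, with shGFP in grey (open squares, normoxia), shNDRG3 in blue and shHIF-1A in orange. GPT2 reaches 5053 and MPC1 6458 in shNDRG3 cells at 24 h, and BCKDK runs from 3811 in normoxia to 6941 in shGFP and 8916 in shNDRG3 cells at 12 h.

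BCKDK, the kinase of the branched-chain ketoacid dehydrogenase and a relative of the PDK proteins, had values that can be set beside those of PDK3. It was at 3811, 5190 and 6941 in shGFP cells in normoxia and after 6 h and 12 h, at 5374 in shHIF-1A cells at 12 h, and at 6770 and 7142 in normoxia and after 24 h. Its differences in hypoxic shGFP cells were 0.44 and 0.86 at the early times, and its limma estimate of 0.41 did not pass (adjusted p = 0.299). In shNDRG3 cells BCKDK was at 5986, 8916 and 7878 at 6, 12 and 24 h, each above the shGFP value of that time. PDK3 in shNDRG3 cells was above the shGFP value at 6 h but below it at 12 h and 24 h. The genes whose values followed PDK3 most closely over the 9 arrays, each centred on its platform mean, were PPP1R16A (r = 0.99), BCKDHA, which encodes a subunit of the branched-chain ketoacid dehydrogenase (r = 0.96), and SEC14L4 (r = 0.96), out of 1707 candidates. BCKDHA was at 717 in normoxia, 1981 in shGFP cells at 12 h and 1016 in shHIF-1A cells. Over the 6 arrays of the first platform alone the 3 correlations were 0.99, 0.98 and 0.96.

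For SLC16A3 the closest were TMPRSS3 (r = 0.98), NIBAN2 and FOLR1 (both 0.97), and FOLR1 was at 1226 in shNDRG3 cells against 13472 in shGFP cells at 24 h. Over the first platform alone these correlations were 0.93, 0.83 and 0.77. For PDK4 they were POLR1G (r = 0.97), VGLL3 and TIGD5 (both 0.96). VGLL3 was at 522 in normoxia, 231 in shGFP cells at 12 h and 139 in shHIF-1A cells. The genes of a pair were read on the same arrays, so these values describe likeness and carry no test.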

How the data were processed

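Per the labels' protocols, 200 ng of total RNA per array was amplified and biotin-labelled; the scanner, software and normalization were not given in the sources used here. The authors deposited intensity values on a linear scale, per probe and per gene. Sorted probe values deviated by at most 0.0269 (log2) between arrays of a platform, as after quantile normalization, and the values look free of background subtraction (lowest gene values 58.0 and 104.7). Signal over background sets the precision. The 10 members were taken from the gene-level table; old symbols were updated through RefSeq (1519 of 18153). Of the members, 8 equalled 1 probe, the same on both platforms, BSG the mean of 2, and LDHA 1 probe on the second platform with no match found on the first. HIF1A had no match on the first either.

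Values were analysed as log2(intensity + 32). Genes were kept where they reached their platform's 40th percentile (127.3 or 210.2) on at least 1 array. limma 3.58.1 (R 4.3.3; lmFit, eBayes, Benjamini-Hochberg adjusted p under 0.05 over all genes) was fitted to the 5 shGFP arrays (platform block, hypoxia term) and to all 9 arrays (a mean per condition and time, an NDRG3 and a HIF1A term), and again with the hypoxia or NDRG3 term split into early times and 24 h. Since times replaced replicates, the hypoxia p-values rest on how far times of 1 line differ. In the 9-array fits the spread comes from how far the shNDRG3 differences vary between times. The 1 shHIF-1A array has its own term and adds nothing to that spread. The HIF1A p-values thus hold no variation of the shHIF-1A line. The fits were first tested on data simulated from the fitted models, with 200 genes changed. Changes of a log2 of 1 were recovered at 99%, 100% and 84% for the hypoxia, NDRG3 and HIF1A terms. For 24 h against the early times it was 100% for NDRG3 and 60% for hypoxia. Unchanged genes called were 19, 35, 15, 12 and 29, in that order. Data drawn from a model cannot show whether the arrays follow it. All 10 members were named, with up to 6 genes of the list of 27 per comparison and the 3 genes most like each member whose values ranged over at least a log2 of 1. Members, lists and tests were chosen with earlier results of these data known. EMB was the 1 listed gene with no row. Other genes named in a sentence on arrays or markers were chosen after their values were seen. Alternatives covered the filter, pseudocount, centring, background and arrays left out.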

Additional observations from a re-analysis of the deposited data

Results flagged for a closer look

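SLC16A3 differed between times: the shNDRG3 difference at 24 h minus that of the early times was -3.50 (limma adjusted p = 9.21e-13), with single differences of -0.01 at 6 h, 0.27 at 12 h and -3.37 at 24 h. PDK3 did so too, by -0.56 (adjusted p = 0.0222), with 0.22, -0.09 and -0.49. The other values listed here have opposite signs between the early times and 24 h, and none was called in the limma test of the difference. LDHA in shNDRG3 cells differed by -0.04, -0.03 and 0.0749 (test of the difference 0.11, adjusted p = 0.676), and LDHB by -0.18, -0.11 and 0.0748 (0.22, adjusted p = 0.351). The probe that equals the LDHA value on the second platform gave 0.07 at 6 h and 0 at 12 h on the first. By that probe the LDHA signs were not opposite. PDK2 in hypoxic shGFP cells differed by -0.06, -0.25 and 0.26 (0.42, adjusted p = 0.746). Time and platform cannot be told apart in any of these.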

How the results depend on the processing

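No paired analysis was possible because the groups of 1 array share no labelled replicates; the 9-array fit already sets shNDRG3 against shGFP cells within each time. The limma hypoxia fit called 56 genes, but 3 with no filter, 148 with the 60th percentile filter, 34 with a pseudocount of 64, 97 after background subtraction, and 949, 94 and 90 without the 6 h, 12 h and 24 h arrays; the members called went from 2 to 0 with no filter and to 1 with a pseudocount of 64 (SLC16A3) or without the 24 h arrays (SLC16A3). The NDRG3 term called 1 gene, but 0 with no filter, with a pseudocount of 64, after background subtraction or without the 12 h arrays, and 646 without the 24 h arrays. The HIF1A term called 0, but 2011 without the 24 h arrays, with 2 members (PDK3 and PDK4). The 24 h against early NDRG3 test called 2549 genes and 2 members, but 811 and 1 (SLC16A3) after background subtraction, where the hypoxia test of that kind called 7 in place of 0. In shHIF-1A cells PDK4 joined PDK3 past 2-fold with a pseudocount of 16 or after background subtraction (2 members in place of 1). The cause of these shifts was not tested. No member's called difference changed sign in any alternative run. The dim BSG probe alone gave -0.30 for hypoxia at 24 h. Signal near background limits SLC16A1, PDK1 and PDK2.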
